A study of Mus musculus with 12 samples.

Results

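The peaks of OCT4 and YY1 at 5 X-linked genes of the translation machinery, Rps4x, Rpl10, Rpl36a, Rpl39 and Eif1ax, were examined before and after Xist induction. Members were all peaks with allelic values that lay in or within 20 kb of the body of a listed gene, by the RefSeq annotation of mm10. There were 9 such peaks among 1217 in the series, of which 3 were among 211 YY1 peaks and 6 among 1006 OCT4 peaks. They fell at Rps4x, Rpl10 and Eif1ax, and neither table held a peak with values near Rpl36a or Rpl39. Binding was measured by ChIP-seq, which pulls down chromatin with an antibody to a protein and sequences the DNA that comes with it. Mouse embryonic stem cells (mESCs) of the line iXist-ChrX-Cast were used, a single female line that is a hybrid of Dom/129S and Cast, grown on feeder fibroblasts that were removed before the experiments. Its castaneus X carries an Xist gene under a TetOn promoter and becomes the inactive X (Xi), and the other X stays active (Xa). Day 6 samples had received 1 µg/ml doxycycline, which switches Xist on, and day 0 samples had received none, and each factor had 2 libraries per day.

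Xist is a non-coding RNA that coats the chromosome it is made from and silences most genes on it. Ribosomal proteins are made in large amounts in every dividing cell. Rps4x encodes a protein of the small ribosomal subunit, Rpl10, Rpl36a and Rpl39 encode proteins of the large subunit, and Eif1ax encodes the initiation factor eIF1A, which helps the small subunit find the start codon. YY1 is a zinc finger protein that regulates transcription and often binds promoters of housekeeping genes, and its binding sequence has the core AANATGGC. OCT4, encoded by Pou5f1, is a POU factor of pluripotent cells that recognises the octamer ATGCNAAT.

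The value of a peak is its allelic ratio, the fraction of allele-assigned fragments that came from Xi, so that 0.5 means equal occupancy of both chromosomes. The median YY1 ratio over all 211 peaks was 0.369 and 0.371 in the day 6 libraries, against 0.480 and 0.491 in the day 0 libraries. The median OCT4 ratio over all 1006 peaks was 0.337 and 0.333 at day 6, against 0.500 in both libraries at day 0. Consensus OCT4 peaks, listed by position alone and only in part also given allelic values, lay in or near 5 of 5 genes that mark mESCs (Pou5f1, Nanog, Sox2, Esrrb and Klf4, with 4 to 26 peaks each). The tables give no fragment numbers, so the depth behind a ratio is unknown and no counting interval is given. Some ratios are simple fractions, which few fragments can give, such as 0.333 and 0.500 for OCT4 at Eif1ax on day 6. Replicates that lie close together may therefore still be imprecise. No source used here says that replicates were separate cultures, so p-values measure the spread between these libraries, which may be technical.

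The sequences at the sites that carry the results below are shown from the RefSeq genome of GRCm38.p6 (mm10), on the plus strand, 5′ to 3′. They are reference sequence and not that of either allele of the hybrid cells. Capitals mark matches to the YY1 core AANATGGC or to the octamer ATGCNAAT on either strand, and these 2 motifs share no matches. The first stretch is the upstream part of the Rpl10 promoter, chrX:74270566-74270815, where a YY1 peak and an OCT4 peak overlap and where YY1 fell. The second is in the first intron of Eif1ax, chrX:159372493-159372656, and holds both core matches of the YY1 peak that fell there. The next 2 are the OCT4 peaks that fell at Rps4x, the whole peak downstream of the gene (chrX:102178581-102178771) and the central part of the peak upstream of it (chrX:102193156-102193455), neither of which held either motif. The last is in the first intron of Rpl36a, chrX:134585969-134586049, in an OCT4 peak without allelic values.
Rpl10 promoter: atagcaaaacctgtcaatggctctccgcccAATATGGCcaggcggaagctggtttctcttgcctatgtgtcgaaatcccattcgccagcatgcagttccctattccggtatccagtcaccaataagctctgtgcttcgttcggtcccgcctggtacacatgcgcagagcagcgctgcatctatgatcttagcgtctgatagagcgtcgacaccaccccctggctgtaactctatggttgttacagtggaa
Eif1ax first intron: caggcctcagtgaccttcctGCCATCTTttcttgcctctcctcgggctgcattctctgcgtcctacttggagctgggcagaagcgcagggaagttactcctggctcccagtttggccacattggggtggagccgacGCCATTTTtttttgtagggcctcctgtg
Rps4x downstream peak: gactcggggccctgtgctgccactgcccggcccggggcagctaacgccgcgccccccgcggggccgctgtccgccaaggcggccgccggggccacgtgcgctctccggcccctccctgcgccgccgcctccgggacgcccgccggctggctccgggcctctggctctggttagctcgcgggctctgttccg
Rps4x upstream peak: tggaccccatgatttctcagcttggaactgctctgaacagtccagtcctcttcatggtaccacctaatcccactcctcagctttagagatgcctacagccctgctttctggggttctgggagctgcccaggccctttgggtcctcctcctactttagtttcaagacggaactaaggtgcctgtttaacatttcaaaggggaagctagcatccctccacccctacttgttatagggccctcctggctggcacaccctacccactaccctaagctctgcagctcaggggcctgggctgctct
Rpl36a first intron: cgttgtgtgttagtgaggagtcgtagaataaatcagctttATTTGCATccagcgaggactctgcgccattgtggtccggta

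The core match at Rpl10 was AATATGGC, 220 bp upstream of the start of the gene. The matches at Eif1ax were AAGATGGC and AAAATGGC on the minus strand, 335 bp and 451 bp into the gene. The third YY1 peak, at the start of Rps4x, had no match. The core was present in 162 of the 211 YY1 peaks over their whole length (76.8%) and in 67.8% of their central 300 bp. It was present in 105 of the 1006 OCT4 peaks over their whole length (10.4%) and in 5.37% of their central 300 bp. Among 32851 RefSeq promoters of 300 bp, 6.05% held it. YY1 peaks with the core had a median change of -0.0930 (n = 162) and those without it of -0.137 (n = 49), a difference that was not tested. No OCT4 peak with values at the translation genes held the octamer, which was found in 212 of the 1006 OCT4 peaks (21.1%), in 15.2% of their central 300 bp and in 3.15% of the promoters. The octamer at Rpl36a, ATGCAAAT on the minus strand, lay 355 bp into the gene. A match is a match of letters only, and its absence says only that these letters are not in the window. The 300 bp RefSeq promoters of all 5 genes were found, and only that of Rpl10 held a core match and none held the octamer. They differed in base composition, with a GC content of 78.0% at Eif1ax and of 53.7% to 58.0% at the other genes.

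**Figure D1:**
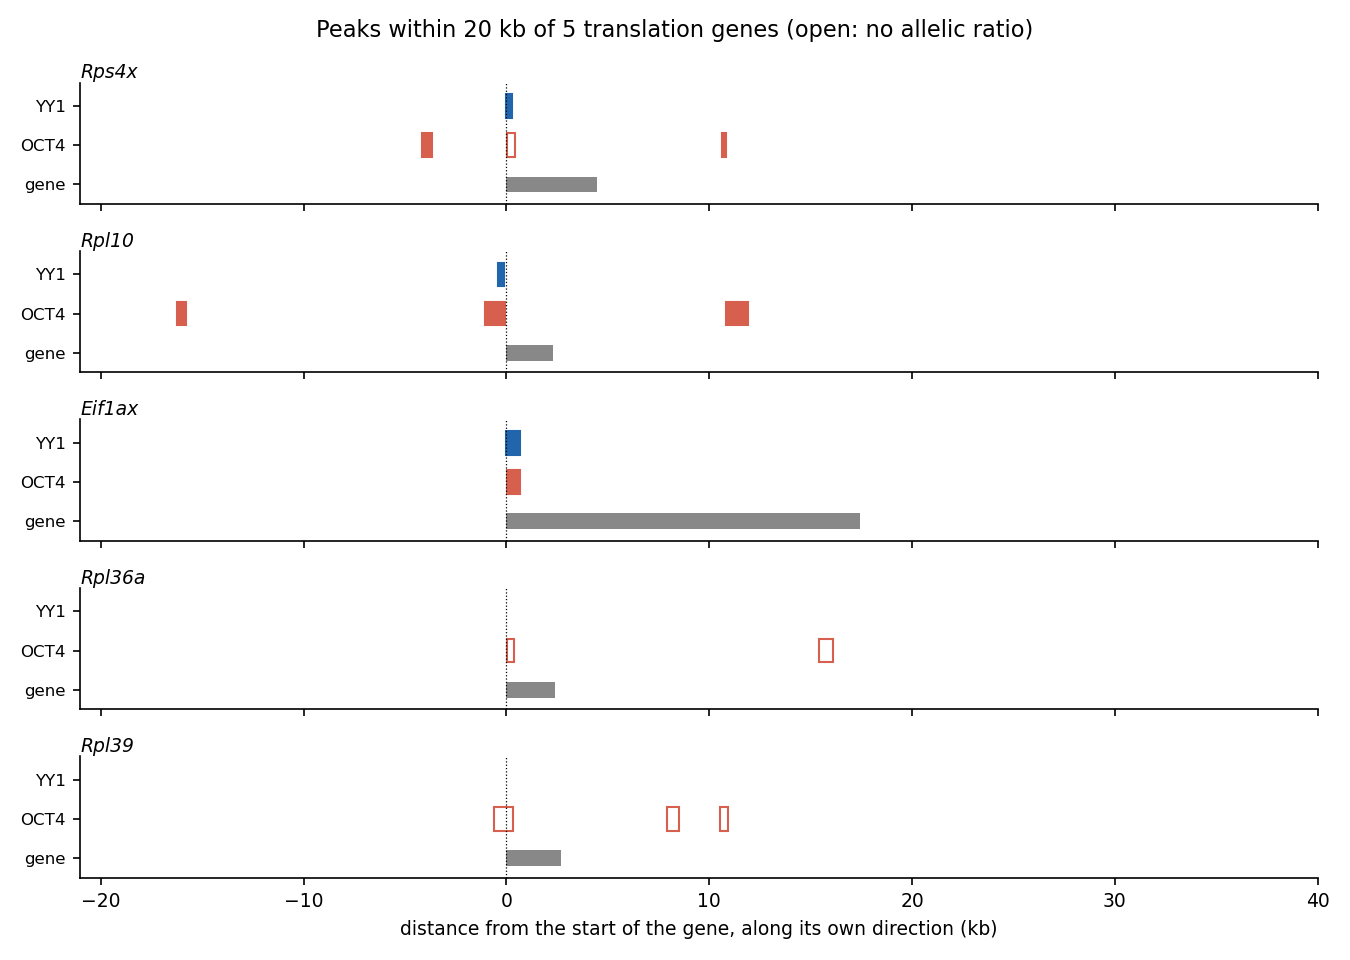
Positions of YY1 peaks (blue), OCT4 peaks (red) and the gene body (grey) for each of the 5 genes, as distance in kb from the gene's start along its own direction. Filled boxes have allelic ratios and open boxes are consensus OCT4 peaks without them. The starts of Rps4x, Rpl10 and Eif1ax each have a YY1 peak, and the windows of Rpl36a and Rpl39 hold only open boxes.

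For both factors the mean ratio was lower at day 6 than at day 0 at each of the 9 peaks. The mean was also lower at 189 of all 211 YY1 peaks and 934 of all 1006 OCT4 peaks. A lower ratio can come from less binding on Xi or from more on Xa, and these cannot be told apart here. Of the decreases at the 9 peaks, 4 passed the test. YY1 fell at the promoters of Rpl10 and Eif1ax, and OCT4 fell at a pair of distal sites on either side of Rps4x. No peak rose. The test was limma on the ratios, two-sided, with p-values adjusted by Benjamini and Hochberg across each factor's whole table, and a threshold of 0.05. The standard errors (SE) given with changes are also those of limma. They draw the spread of a peak towards that of all peaks in the fit, and so are not the spread of its own libraries alone. Of YY1 peaks, 2 of 3 at the translation genes fell, against 42.2% of the whole YY1 table. Of OCT4 peaks, 2 of 6 fell, against 35.0% of the whole OCT4 table. Both day 6 ratios were below both day 0 ratios at 2 of the 3 YY1 peaks and 4 of the 6 OCT4 peaks, against 72.0% and 73.0% of the 2 tables. The median change over the 3 YY1 peaks was -0.122, beside -0.0987 over all YY1 peaks. The median over the 6 OCT4 peaks was -0.180, beside -0.149 over all OCT4 peaks. With 3 and 6 peaks these shares and medians are a description, and nothing particular to the translation genes is read from them.

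**Figure D2:**
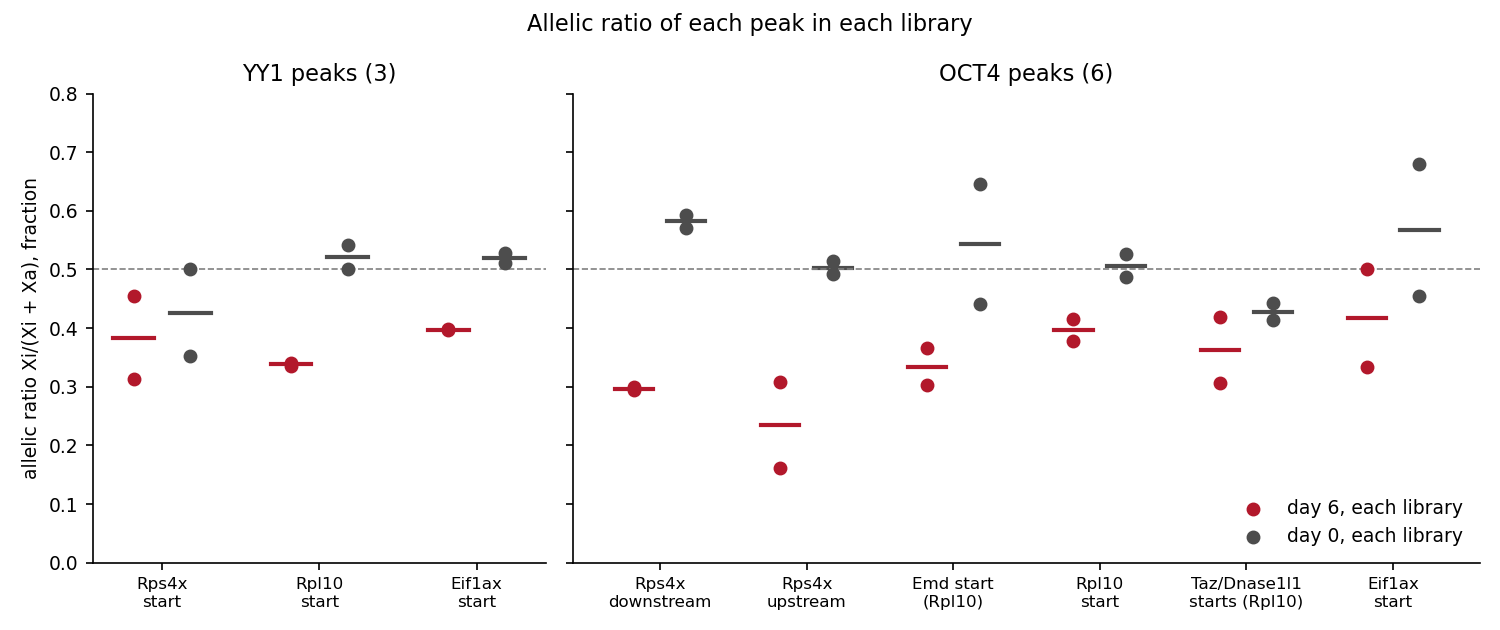
Allelic ratio Xi/(Xi + Xa) (vertical axis, fraction) of each peak in each library, with day 6 in red to the left of day 0 in grey, bars at the mean of 2 libraries and a dashed line at 0.5. The YY1 points of Rpl10 and Eif1ax are separate between days (for Eif1ax the day 6 points coincide at 0.397 and 0.398), while those of YY1 at Rps4x and of OCT4 at Eif1ax and at the Taz and Dnase1l1 starts overlap.

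Rps4x lies 1.29 Mb from the start of Xist, the closest of the 5 genes. It had allelic values at a pair of distal OCT4 peaks and at a YY1 peak over its start. The OCT4 peak downstream (chrX:102178581-102178771) had ratios of 0.30 and 0.294 in the day 6 libraries, against 0.593 and 0.571 in the day 0 libraries. The days were well apart and the replicates close together, although ratios such as 0.30 and 0.571 are simple fractions that few fragments can give. The change was -0.285 ± 0.0531 (SE, n = 2 per day), with a limma adjusted p of 0.0163, and the peak kept 51.0% of its day 0 ratio. This peak is 6170 bp beyond the 3′ end of Rps4x, inside the annotated pseudogene Gm9103. The source of the pseudogene is not given in the annotation, and whether fragments there could also match another copy was not tested.

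The OCT4 peak upstream of Rps4x (chrX:102193059-102193551) is intergenic, 3668 bp before the start of the gene. Its ratios were 0.308 and 0.162 at day 6, against 0.514 and 0.493 at day 0. The days did not overlap, although the day 6 libraries were far from each other. The change was -0.268 ± 0.0654 (SE, n = 2 per day, limma adjusted p = 0.0252), which left 46.7% of the day 0 ratio. Over all OCT4 peaks, 10.5% had a larger decrease than the downstream peak and 14.5% a larger decrease than the upstream peak.

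YY1 bound the start of Rps4x itself (chrX:102189116-102189431), over the first exon and part of the first intron. Its ratios were 0.455 and 0.312 at day 6, against 0.353 and 0.500 at day 0. The day 6 libraries lay inside the range of the day 0 libraries only in part, and the groups overlapped. The change of -0.0429 ± 0.0676 (SE, n = 2 per day) did not pass the test (limma adjusted p = 0.639), and its sign depended on which library was used, with 0.0306 and 0.0281 when replicate 2 of day 0 or of day 6 was left out, and -0.116 and -0.114 when replicate 1 of day 0 or of day 6 was left out. A consensus OCT4 peak (chrX:102188952-102189375) overlaps this YY1 peak but has no allelic values, so the factors could not be compared at the start of Rps4x.

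Both Rps4x decreases of OCT4 passed the threshold only with both day 0 libraries in the fit. Without day 0 replicate 1 the adjusted p was 0.0735 for the downstream and 0.0909 for the upstream peak, and without day 0 replicate 2 it was 0.0607 and 0.0822. Without day 6 replicate 2 the upstream peak also missed the threshold, with a change of -0.196 and an adjusted p of 0.0587. The loss of calls was common to the table, in which 352 OCT4 peaks fell with all libraries, against 1 and 0 when replicate 1 or 2 of day 0 was left out. In the last case limma gave 332 decreases at an unadjusted p under 0.05.

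Rpl10 lies 29.2 Mb from the start of Xist, and its promoter held both factors. At the YY1 peak (chrX:74270387-74270720), which ends 96 bp before the start of the gene and contains the core match shown above, the ratios were 0.336 and 0.341 at day 6, against 0.542 and 0.500 at day 0. The replicates were closer to each other than the days by a wide margin. The change was -0.183 ± 0.0333 (SE, n = 2 per day), with a limma adjusted p of 0.0125, and the site kept 64.9% of its day 0 ratio. Over all YY1 peaks, 24.6% had a larger decrease.

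The OCT4 peak at the Rpl10 promoter (chrX:74269782-74270737) contains the whole YY1 peak. It had ratios of 0.378 and 0.415 at day 6, against 0.487 and 0.526 at day 0. Both day 6 libraries were below both day 0 libraries. The change of -0.110 ± 0.0547 (SE, n = 2 per day) did not pass the test (limma adjusted p = 0.139), and 78.3% of the day 0 ratio was kept.

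The 2 further OCT4 peaks in the Rpl10 window lie at the starts of neighbouring genes and not at Rpl10. The first (chrX:74254565-74255038) covers the start of Emd, which encodes the nuclear envelope protein emerin. Its ratios were 0.302 and 0.366 at day 6, against 0.645 and 0.441 at day 0. The days did not overlap, but the day 0 libraries were far apart, and the change of -0.209 ± 0.0771 (SE, n = 2 per day) missed the threshold (limma adjusted p = 0.0692). The second (chrX:74281649-74282710) covers the starts of Taz, which encodes tafazzin of cardiolipin metabolism, and Dnase1l1. It had ratios of 0.418 and 0.306 at day 6, against 0.414 and 0.442 at day 0, so that 1 day 6 library lay within the day 0 range. Its change of -0.0658 ± 0.0609 (SE, n = 2 per day), with a limma adjusted p of 0.397, was the smallest of the 6 OCT4 peaks.

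Eif1ax, at 55.9 Mb from the start of Xist, had 1 peak of each factor, both over its first exon and the beginning of its first intron. The YY1 peak (chrX:159372165-159372855) had ratios of 0.397 and 0.398 at day 6, against 0.528 and 0.511 at day 0. The replicates were nearly equal on each day and the days were separate. The change was -0.122 ± 0.0313 (SE, n = 2 per day, limma adjusted p = 0.0269), with 76.5% of the day 0 ratio kept, and 42.7% of YY1 peaks had a larger decrease. The OCT4 peak (chrX:159372215-159372865) had ratios of 0.333 and 0.500 at day 6, against 0.680 and 0.455 at day 0. These groups overlapped, and the change of -0.151 ± 0.0907 (SE, n = 2 per day) did not pass the test (limma adjusted p = 0.207). Its replicates differed more than those of any other peak of the translation genes, with an SD of 0.118 at day 6 and 0.159 at day 0.

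The YY1 decreases at Rpl10 and Eif1ax also rested on all libraries. With 1 library left out at a time, the adjusted p ran from 0.0494 to 0.0578 at Rpl10 and from 0.0807 to 0.100 at Eif1ax, and only Rpl10 without day 6 replicate 2 stayed under the threshold. In these fits the change itself ran from -0.204 to -0.162 at Rpl10 and from -0.131 to -0.113 at Eif1ax. The number of YY1 peaks that fell in the whole table was 89 with all libraries, 17 and 0 when replicate 1 or 2 of day 0 was left out, and 38 and 51 when replicate 1 or 2 of day 6 was. Where it was 0, limma gave 91 decreases at an unadjusted p under 0.05.

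**Figure D3:**
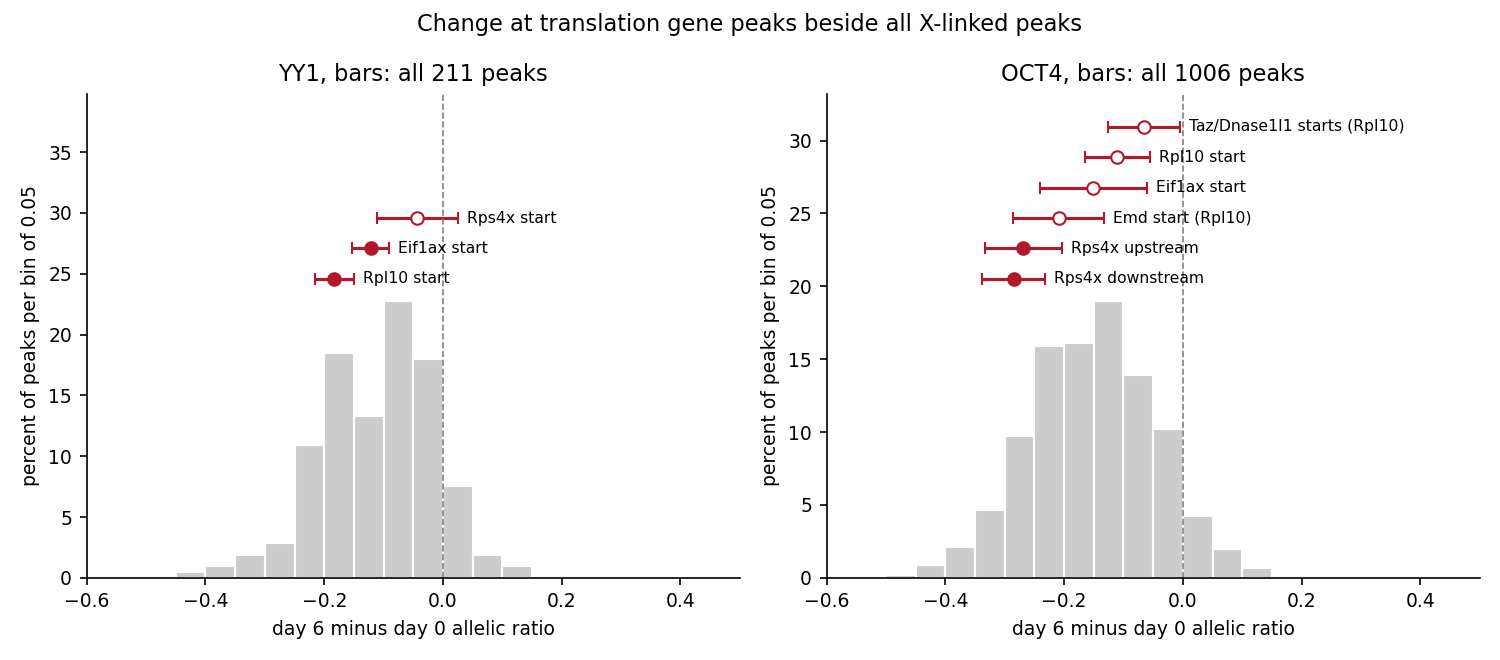
Change of allelic ratio (day 6 minus day 0, horizontal axis) at each peak of the translation genes, as points with SE (n = 2 per day), above bars that give the percent of all 211 YY1 or 1006 OCT4 peaks in bins of 0.05. Filled points passed the test. The Rps4x distal sites lie at -0.285 and -0.268 in the left part of the OCT4 bars and the YY1 peak of Rps4x at -0.0429 in the right part of the YY1 bars.

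The promoters of Rpl10 and Eif1ax allowed the factors to be compared at one site. At Rpl10 the YY1 change minus the OCT4 change was -0.0728 ± 0.0621 (SE), with a 95% interval of -0.216 to 0.0702 (limma adjusted p = 0.680). At Eif1ax the difference was 0.0288 ± 0.114 (SE), with a 95% interval of -0.234 to 0.292 (limma adjusted p = 0.920). At Eif1ax it turned to -0.0840 without OCT4 day 0 replicate 1 and to -0.0546 without OCT4 day 6 replicate 1. Neither site showed a difference between the factors beyond the spread of the libraries, and neither interval is narrow enough to call their changes alike. Over all 69 overlapping pairs of a YY1 and an OCT4 peak, 0 (0%) had an adjusted p under 0.05 in limma and 6 had an unadjusted p under 0.05, and the median difference was -0.0283.

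The peaks were also set side by side by their position. The 4 OCT4 peaks within 500 bp of a RefSeq start (Rpl10, Emd, Taz with Dnase1l1, and Eif1ax) had changes from -0.209 to -0.0658 and none passed the test, while the pair of distal peaks at Rps4x had changes of -0.285 and -0.268 and both passed. The difference between these sets was not tested, and since both distal peaks belong to Rps4x, position and gene cannot be told apart. In the whole OCT4 table the median change was -0.111 over 180 peaks within 500 bp of a start, of which 36 fell, and -0.160 over 826 distal peaks, of which 316 fell. All 3 YY1 peaks were within 500 bp of a start, where the median of the YY1 table was -0.131 over 81 peaks, of which 37 fell. The order of the OCT4 levels at day 6, from low to high, was Rps4x upstream (0.235 ± 0.103, SD, n = 2), Rps4x downstream (0.297 ± 0.00416), Emd (0.334 ± 0.0449), Taz with Dnase1l1 (0.362 ± 0.0792), Rpl10 (0.396 ± 0.0264) and Eif1ax (0.417 ± 0.118). Neighbours in this order had overlapping ranges of libraries, except the Rps4x downstream and Emd peaks, which were 0.30 and 0.302 at their closest. The YY1 levels at day 6 were 0.338 ± 0.00355 at Rpl10, 0.384 ± 0.100 at Rps4x and 0.398 ± 0.00117 at Eif1ax (SD, n = 2), and the range of Rps4x covered both others.

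Among the other peaks within 500 bp of a RefSeq start, those most like each gene's nearest peak were found by the root mean square difference of the ratios over 4 libraries. Most like the YY1 peak of Rpl10 were those at Smim10l2a (0.0164) and Scml2 (0.0197). Most like the YY1 peak of Eif1ax were those at Suv39h1, a histone methyltransferase gene (0.0220), and Htatsf1 (0.0266), among 78 candidates for YY1. Htatsf1 was also the nearest match of the Eif1ax OCT4 peak, at a larger difference of 0.0546, among 176 candidates for OCT4, followed by a peak at the starts of Ribc1 and Smc1a (0.0579). The OCT4 peak at the Rpl10 promoter was closest to those at Tbl1x (0.0237) and Rbmx (0.0299), and the OCT4 peak upstream of Rps4x to those at Rnf128 (0.0415) and Mcf2 (0.0495). That Rps4x peak is itself distal, and distal peaks were not among its candidates. The YY1 peak of Rps4x was closest to those at Cdk16 (0.0494) and Mtmr1 (0.0553). These values describe likeness in 4 libraries and carry no test.

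At Rpl36a and Rpl39 OCT4 was present in the consensus peak list, which pools libraries and alleles, but nothing could be read about Xi. Rpl36a had 2 consensus OCT4 peaks in its window, 1 of them from 36 bp inside the gene (chrX:134585690-134586049), mostly in the first intron, with the octamer shown above. The other (chrX:134601049-134601750) covers the start of Hnrnph2, which encodes an RNA-binding protein. Rpl39 had 3, of which 1 (chrX:37084911-37085809) covers the start of the gene and the other two lie 5194 bp and 7822 bp beyond its 3′ end. The windows of Rps4x, Rpl10 and Eif1ax held 3, 3 and 1 consensus peaks, all but the 1 at the Rps4x start with allelic values. No region called in the input libraries fell in any of the 5 windows. A peak enters the tables only with enough fragments over strain-specific positions and without a strong bias to one allele at day 0. Which of these rules kept the Rpl36a and Rpl39 peaks out was not tested.

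A list of 11 other X-linked genes of translation was counted in the same way, for translation factors and regulators, ribosome biogenesis and tRNA modification. Their windows held 5 YY1 peaks at 4 genes, of which 5 fell (42.2% in the whole table), and 16 OCT4 peaks at 9 genes, of which 7 fell (35.0% in the whole table), with none that rose. The median change was -0.223 over the YY1 peaks and -0.193 over the OCT4 peaks. The YY1 peaks were at the starts of Gspt2, a relative of the release factor eRF3 (-0.219 ± 0.0549), Tsr2, a ribosome maturation factor (-0.223 ± 0.0320), and Gnl3l, a nucleolar GTPase (-0.233 ± 0.0340), and at the start (-0.180 ± 0.0356) and in an intron (-0.236 ± 0.0435) of Dkc1, the pseudouridine synthase dyskerin (SE, n = 2 per day, limma adjusted p from 0.00976 to 0.0251). With 1 YY1 library left out, the number that fell was 1 and 0 when replicate 1 or 2 of day 0 was left out, and 4 in each fit that lacked a day 6 library.

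For OCT4 the deepest change in this list was 11447 bp upstream of Las1l, a gene of large subunit maturation (-0.384 ± 0.0599, limma adjusted p = 0.0163), which kept 32.9% of its day 0 ratio. The other OCT4 peaks that fell were near Eif2s3x, the gamma subunit of the initiation factor eIF2 (-0.283 and -0.199), Utp14a, a gene of small subunit processing (-0.239), Fmr1, which encodes the translational regulator FMRP (-0.209), Trmt2b (-0.206) and Tsr2 (-0.187). The Tsr2 peak was the only 1 of these within 500 bp of a start, and the Eif2s3x peaks lay 10689 bp and 393 bp beyond the end of the gene. These Eif2s3x peaks had mean ratios of 0.413 and 0.397 at day 6, against 0.696 and 0.596 at day 0. They were above the medians over all OCT4 peaks on both days (0.339 at day 6 and 0.497 at day 0). The study names the Eif2s3x locus as an escapee of inactivation, with open chromatin kept on both alleles in differentiating cells of the reciprocal line. The largest changes that did not pass were -0.269 at a further Eif2s3x peak, -0.209 in Trmt2b and -0.173 at the start of Fmr1. Ribosome biogenesis genes had 3 of 6 OCT4 peaks that fell, translation factors and regulators 3 of 5, and tRNA modification genes 1 of 5. All 7 calls were lost when either day 0 library was left out, and 6 and 5 were made when replicate 1 or 2 of day 6 was. Of the 10 OCT4 peaks within 5 kb of these genes, 2 fell. The share was 35.0% over all OCT4 peaks, and 36 of 180 fell among those within 500 bp of a start. In the intron of Dkc1, chosen after its values were seen, YY1 changed by -0.236 and OCT4 by -0.0408. The difference was -0.195 with a 95% interval of -0.382 to -0.00834, and it did not pass adjustment over the 69 pairs (limma adjusted p = 0.470). At the start of Tsr2, the only other overlapping pair at these genes, the difference was -0.0356. Its 95% interval was -0.178 to 0.107 (limma adjusted p = 0.767).

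**Figure D4:**
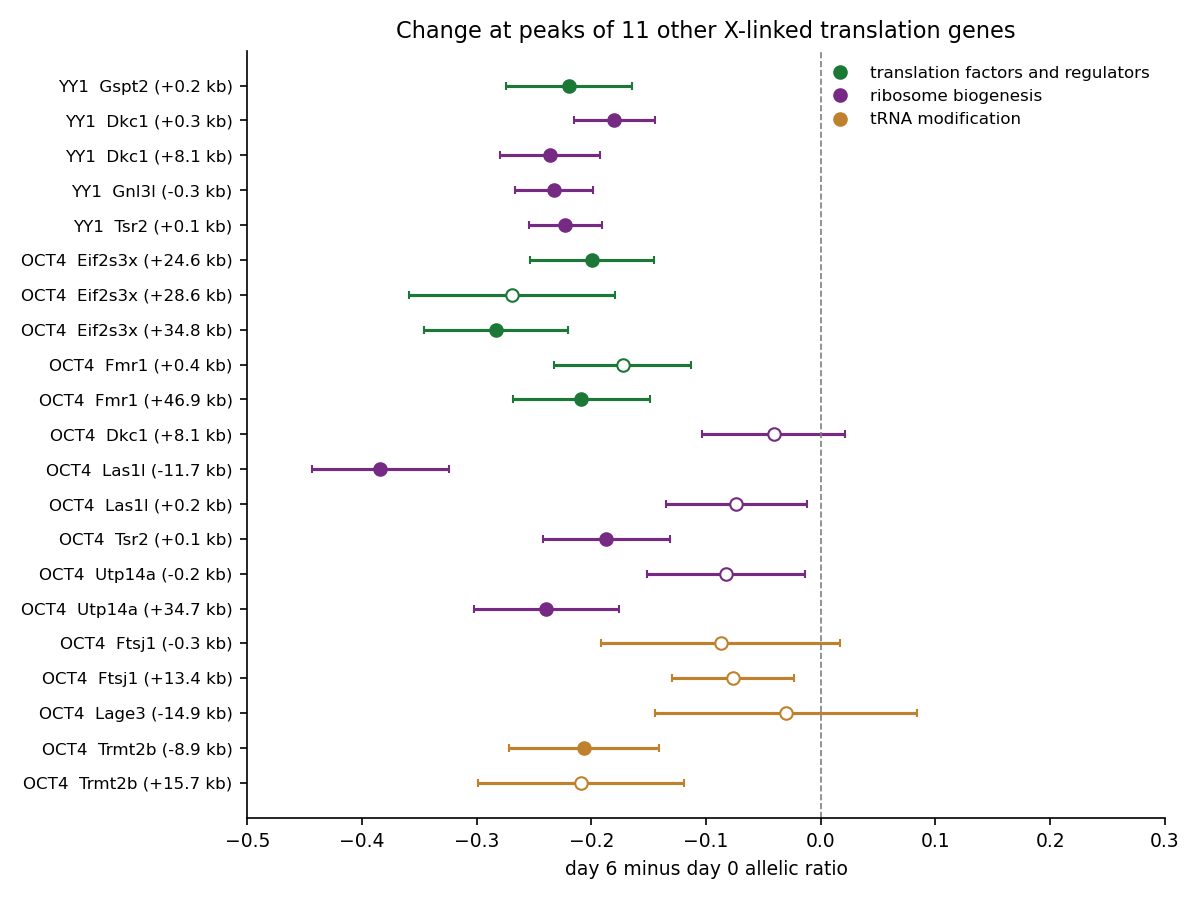
Change of allelic ratio (day 6 minus day 0, horizontal axis) with SE (n = 2 per day) at each YY1 and OCT4 peak near 11 other X-linked translation genes, coloured by list, with the distance of the peak's centre from the gene's start in kb. Filled points passed the test. All 5 YY1 points are filled and lie between -0.236 and -0.180, and the OCT4 points run from -0.384 to -0.0300.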

How the data were processed

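The authors deposited, for each X-linked peak, an allelic ratio: a fraction with the ChIP-seq fragments from Xi above those from both X chromosomes. Per the study's methods, they mapped reads to an mm10 genome masked at SNPs, removed duplicates (Picard), split reads by allele (SNPsplit), and called peaks in single libraries (MACS2) to form a consensus from which input regions were taken out, and they dropped peaks with few allelic fragments or a biased ratio before induction. Bowtie2 2.3.5.1 is named in the submitters' processing notes. A ratio stays the same where both alleles gain or lose binding equally. Those methods derive the YY1 consensus from anti-YY1 libraries, although the allelic counting is described for peaks of T7-tagged YY1, and they filter OCT4 and YY1 peaks alike. OCT4 and YY1 were precipitated from shared extracts, and whether equal replicate numbers mark one extract was not stated.

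Of 12 libraries, 8 have ratios and the other 4 are inputs, represented here only by a list of input regions. The YY1 ratio columns were matched to libraries by name. The names of the OCT4 columns include that of a clone absent from the labels, and only their factor, day and replicate could be matched. The OCT4 and input region lists gave positions only.

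limma 3.58.1 in R 4.3.3 (lmFit, eBayes) was fitted to the ratios of all peaks of a factor, 2 day 6 against 2 day 0 libraries, and to the 69 overlapping pairs (at least 1 bp) with an interaction term. The code was tested on simulated data. Named were all peaks of the 5 genes, the 2 most similar promoter peaks of each, and, for the other genes, all calls and the 3 largest changes that missed the threshold. Positions are counted from 1, and exons and introns are those of curated transcripts. The members and gene lists were chosen with earlier results of these data known. As alternatives, the fits were repeated with the replicate number as a block, on a logit or a log2 scale (floor 0.01), on peaks of day 0 ratio 0.3 to 0.7, with trend and robust priors, at a threshold of 0.1, with windows of 5 and 50 kb and a stricter overlap, and without each library. Leaving out libraries for the 11 other genes was added after the data had been seen.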

Additional observations from a re-analysis of the deposited data

How the results depend on the processing

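The number of peaks that fell at the translation genes stayed at 2 of 3 for YY1 and 2 of 6 for OCT4 on the logit scale, with day 0 ratios between 0.3 and 0.7 and with another eBayes prior. On the log2 scale 1 of 6 OCT4 peaks fell, since the upstream Rps4x peak had a limma adjusted p of 0.0751. Calls were fewer in the whole OCT4 table too, with 163 of 1006 peaks on that scale against 352 in the main fit. Within 5 kb of the genes 1 of 3 OCT4 peaks fell. The median YY1 change over peaks within 50 kb was -0.144. At a threshold of 0.1, 3 of 6 OCT4 peaks and 2 of 3 YY1 peaks fell, beside 504 of all 1006 OCT4 peaks and 120 of all 211 YY1 peaks. With 1 library left out, the number that fell ran from 0 to 1 for YY1 and from 0 to 2 for OCT4, where the remaining library of that day is assumed to vary like the others, and the YY1 change at Rps4x ran from -0.116 to 0.0306. The YY1 change minus the OCT4 change ran from -0.0939 to -0.0516 at Rpl10 and from -0.0840 to 0.141 at Eif1ax in these fits. At the other translation genes, 2 OCT4 peaks fell within 5 kb, and with 1 library left out 0 to 4 YY1 and 0 to 6 OCT4 peaks fell. The cause of these shifts was not tested.

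With the replicate number as a block, 2 YY1 and 2 OCT4 peaks again fell, and the differences between factors kept their values of -0.0728 and 0.0288. Over all peaks, 97 YY1 and 274 OCT4 peaks fell with the block, against 89 and 352 without it. Libraries with equal numbers did not deviate together (r = 0.0315 over YY1 and -0.0217 over OCT4 peaks), and no label says that they pair. Across the factors, at the 69 overlapping pairs, the deviations of libraries with equal numbers had r = -0.0172 at day 6 and -0.0765 at day 0.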
